A study of Mus musculus with 8 samples.

Results

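The 8 genes followed here encode receptors, ligands and a peptidase, and were taken from pathways that act on the neural crest of the gut. Their levels were compared in cultured sacral neural crest cells of the mouse, with and without an intact Sox10 gene. The genes were chosen by name from the endothelin, GDNF family, neurotrophin and chemokine pathways, as probe sets with a single gene symbol. They were Ednrb, Edn1, Ecel1, Gfra2, Gdnf, Ngfr, Ntrk2 and Cxcr4. All 8 were measured, each by 1 probe set, among 6855 genes tested. Of the 8, 1 passed the test between genotypes, as did 0.481% of all genes tested. It was the neurturin receptor gene Gfra2, which was 2.33-fold lower in mutant cultures.

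Each genotype had 4 Affymetrix Mouse Gene 1.0 ST arrays, numbered as replicates 1 to 4. One group was homozygous for the Dom allele of Sox10, a frameshift allele of this crest transcription factor (Dom/Dom), and the other was wild type. In both, the neural tube caudal to somite 24 was dissected from embryos at embryonic day 9.5 and cultured for 24 hours in medium with 10% serum. The explant was then removed, and RNA was taken from the cells that had moved out of it. The culture therefore holds whatever cells leave the tube, with no sorting step in the labels, and the labels give neither strain nor the number of embryos behind an array. Nothing shows that replicates came from separate embryos, so each p-value reflects only how these samples spread, some of which may be technical.

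Neural crest cells that colonise the gut form the enteric nervous system, and signals from the gut wall guide and maintain them. Endothelin 3 acts on the receptor EDNRB and keeps enteric progenitors proliferating. Loss of either, or of SOX10, leaves some or all of the gut without ganglia in mice and in Hirschsprung disease. GDNF and neurturin act through RET with the co-receptors GFRA1 and GFRA2 to drive survival and migration. Neurotrophins bind TRK receptors and the shared low-affinity receptor p75, encoded by Ngfr, which is widely used as a surface marker of migratory and enteric crest cells. The chemokine CXCL12 attracts cells that carry CXCR4.

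Promoters are shown for the receptor genes with lower mutant levels and for the genes with a SOX core motif, since the comparison concerns a SOX factor. RefSeq (GRCm38.p6) gave start sites for 7 of the 8 genes, and Gfra2 had no entry. The 250 bases before each start were searched on both strands for ACAAAG and ACAATG, and capitals mark a match. Some of these starts are not the outer end of the gene. The Ednrb and Ecel1 windows lie inside the bounds of their genes, which end at 103844508 and 87157085. The Ntrk2 window runs past the first base of its gene, at 58806472. The windows lie at chr14:103843702-103843951 (minus strand) for Ednrb, chr11:95587699-95587948 (minus strand) for Ngfr, chr1:87156357-87156606 (minus strand) for Ecel1 and chr13:58806319-58806568 (plus strand) for Ntrk2, and each is written 5′ to 3′ on the gene's strand.
Ednrb: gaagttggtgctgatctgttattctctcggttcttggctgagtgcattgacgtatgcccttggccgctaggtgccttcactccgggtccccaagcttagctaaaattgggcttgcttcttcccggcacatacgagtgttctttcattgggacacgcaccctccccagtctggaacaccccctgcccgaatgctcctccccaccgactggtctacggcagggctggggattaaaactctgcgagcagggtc
Ngfr: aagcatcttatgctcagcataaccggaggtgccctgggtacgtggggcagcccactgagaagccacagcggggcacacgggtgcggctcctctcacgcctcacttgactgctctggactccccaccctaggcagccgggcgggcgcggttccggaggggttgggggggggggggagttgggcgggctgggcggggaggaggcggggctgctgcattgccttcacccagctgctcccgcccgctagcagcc
Ecel1: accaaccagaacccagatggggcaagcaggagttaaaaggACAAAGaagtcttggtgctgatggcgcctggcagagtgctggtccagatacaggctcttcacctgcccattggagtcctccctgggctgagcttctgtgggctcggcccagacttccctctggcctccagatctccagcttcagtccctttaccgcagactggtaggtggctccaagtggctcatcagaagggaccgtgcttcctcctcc
Ntrk2: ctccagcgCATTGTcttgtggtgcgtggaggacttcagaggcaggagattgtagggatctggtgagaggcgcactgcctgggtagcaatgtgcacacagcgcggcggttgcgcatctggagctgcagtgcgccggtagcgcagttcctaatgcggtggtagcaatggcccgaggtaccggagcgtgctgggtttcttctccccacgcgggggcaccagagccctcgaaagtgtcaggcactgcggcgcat
The Ecel1 window held ACAAAG, beginning 210 bases before the start, and the Ntrk2 window held ACAATG on the opposite strand, its first printed base 242 bases before the start. The 2 matches overlapped no other match. The other windows, 1 each for Ednrb, Ngfr, Edn1 and Cxcr4 and 2 for Gdnf, did not hold these letters. Of all 32851 promoter windows of that length in the table, 16.5% held ACAAAG, 10.7% held ACAATG and 25.2% held either one, so 2 of 8 windows is close to the share over all genes. GC content was 70.4% in the Ngfr window, 62.8% in that of Ntrk2, 58.4% in that of Ecel1 and 56.8% in that of Ednrb.

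Levels are log2 expression values, in which a difference of 1 unit is a 2-fold change. Array medians ran from 8.60 to 8.78. The fit across all genes called 33 of 6855 genes (0.481%) different at an adjusted p of 0.05, 28 lower (0.408%) and 5 higher (0.0729%) in Dom/Dom, and 6.11% had an unadjusted p under 0.05. With the replicate number as a block it called 103 (1.5%), 72 lower (1.05%) and 31 higher (0.452%), and 13.9% had an unadjusted p under 0.05. Sox10 itself was lower in Dom/Dom in all 4 pairs of same-numbered arrays, at 9.98 to 10.94 against 11.46 to 11.89 (limma adjusted p = 0.0168). Transcript is still made from the Dom allele, and its level is therefore no check of the genotype. Of 9 measured neural crest markers 1 fell, Sox10, and with the block 3 fell, as Tfap2a (-0.50, limma adjusted p = 0.0418 with the block) and the cadherin gene Cdh6 (-0.41, 0.0310 with the block) were added, both lower in 4 of 4 pairs. The mean of the 9 was 11.21 to 11.54 in Dom/Dom and 11.53 to 11.74 in wild type. The crest genes Pax3 (12.50 ± 0.10 in Dom/Dom against 12.46 ± 0.13, SD, n = 4) and Tfap2b (12.20 ± 0.30 against 12.18 ± 0.07, SD, n = 4) had close means, with a wider spread of Tfap2b in Dom/Dom. In these unsorted cultures, fewer cells of a type and less RNA per cell cannot be told apart.

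Against that background, 1 of the 8 genes fell and 7 did not pass, without the block and with it; at an unadjusted p under 0.05, limma counted 4 of the 8, and 5 with the block. Of the 8, 6 had a difference below 0 and 2 above, and the median difference was -0.31, beside -0.0009 over all genes tested. Groups did not overlap for 3 genes, Ednrb, Gfra2 and Gdnf, each with all Dom/Dom arrays below all wild-type arrays. Such separation was seen in 3.78% of all genes tested, and in 2.6% with Dom/Dom on the lower side.

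**Figure D1:**
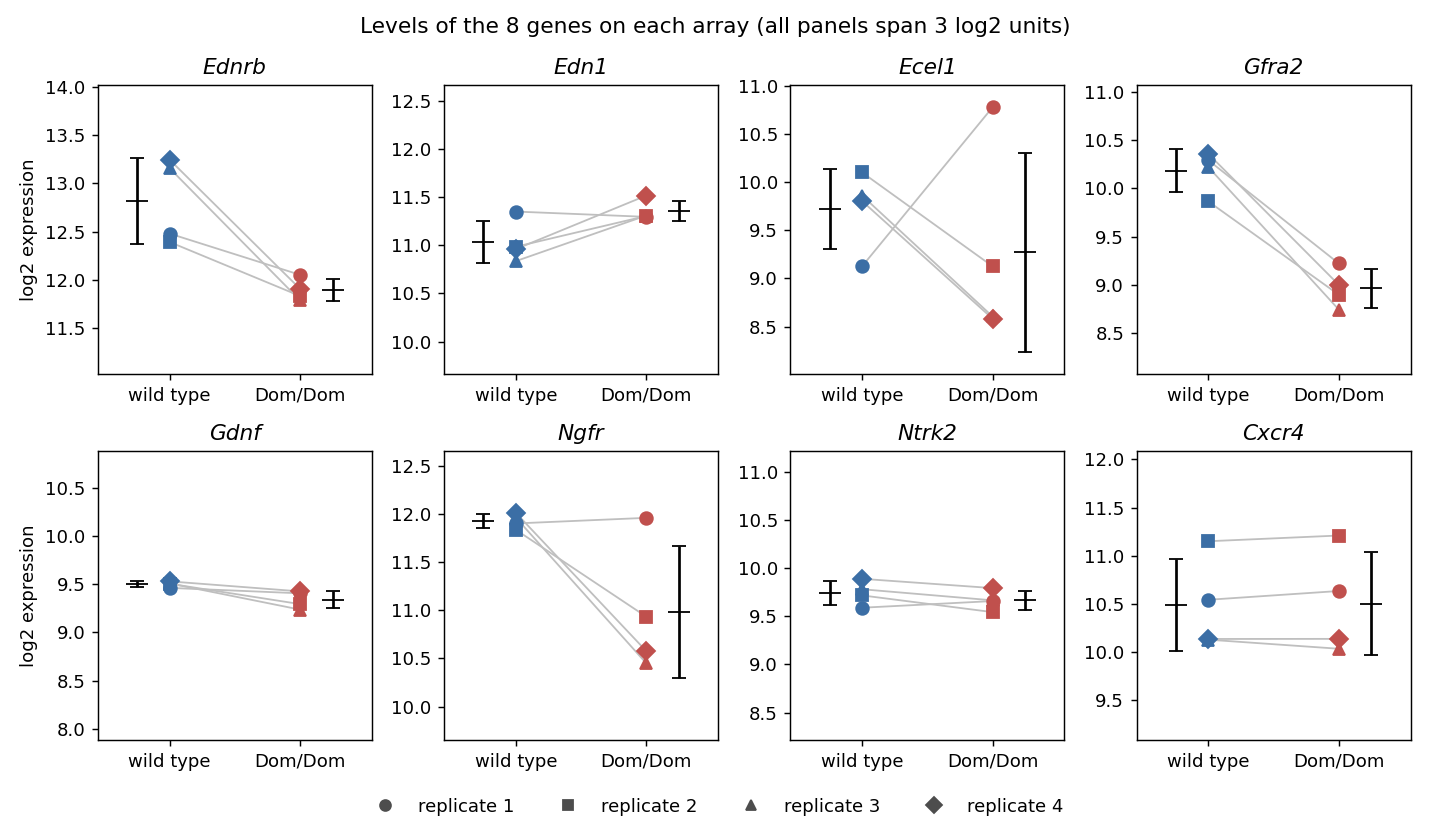
Log2 expression (y axis) of the 8 genes on each array, wild type in blue and Dom/Dom in red, with symbols for replicates 1 to 4, grey lines joining same-numbered arrays and black bars for the mean ± SD of 4 arrays. Gfra2 and Ednrb are lower in all 4 Dom/Dom arrays, and Cxcr4 follows the replicate number. Ngfr, Ecel1, Ednrb and Gfra2 have their highest Dom/Dom level in replicate 1.

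Gfra2 was the receptor gene of the 8 that fell in Dom/Dom cultures. It encodes the GPI-anchored co-receptor that binds neurturin and presents it to RET, and it is known for its part in the innervation of the gut by cholinergic neurons. Its levels (chromosome 14, probe set 10416340) were 9.22, 8.90, 8.74 and 9.00 in Dom/Dom replicates 1 to 4 and 10.29, 9.87, 10.22 and 10.36 in wild type. The highest Dom/Dom array thus lay below the lowest wild-type array, and the spread within either genotype was small against the gap. The difference, Dom/Dom minus wild type, was -1.22 with a standard error of 0.13 and a 95% interval of -1.51 to -0.93 (limma adjusted p = 0.00298). It ranked 5th of all genes by p-value and 12th by size of fall. Same-numbered arrays differed by -1.07, -0.97, -1.48 and -1.36, so it was lower in 4 of 4 pairs, as were 10.7% of all genes. The fall passed with each of the 8 arrays left out (adjusted p between 0.00102 and 0.0177). It missed the threshold when all 16381 probe sets were tested (adjusted p = 0.0543) and in replicates 1 and 2 alone (difference -1.02, adjusted p = 0.286).

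Ednrb, the receptor for endothelin 3, was lower in each Dom/Dom array than in any wild-type array, and its difference missed the threshold. Its levels (chromosome 14, probe set 10422164) were 12.48, 12.39, 13.16 and 13.25 in wild-type replicates 1 to 4 and 12.05, 11.83, 11.79 and 11.91 in Dom/Dom. The Dom/Dom arrays were close together (11.89 ± 0.12, SD, n = 4) and the wild-type arrays were spread (12.82 ± 0.45, SD, n = 4), with replicates 1 and 2 below replicates 3 and 4. The difference was -0.92 (1.9-fold; 95% interval -1.34 to -0.51), and it missed the threshold with a limma adjusted p of 0.0718, or 0.0644 with the block. An exact two-sided permutation test of the 8 arrays gave p = 0.0286, the smallest that 4 against 4 allows. Groups that do not overlap always give this value, as Gdnf did, so it adds nothing to their separation. Leaving out wild-type replicate 2, the lowest wild-type array, gave -1.07 and an adjusted p of 0.0273, while leaving out any other single array gave adjusted p between 0.0516 and 0.242. By pairs, the differences were -0.43 and -0.56 in replicates 1 and 2 and -1.37 and -1.34 in replicates 3 and 4. Centred on array medians it also passed (-0.99, adjusted p = 0.0363).

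Ngfr had the opposite layout, with an even wild type and a spread mutant group. Its levels (chromosome 11, probe set 10390175) were 11.90, 11.83, 11.96 and 12.01 in wild-type replicates 1 to 4, and 11.96, 10.93, 10.45 and 10.58 in Dom/Dom. Dom/Dom replicate 1 sat among the wild-type arrays, and the other 3 Dom/Dom arrays lay below all of them. The difference was -0.95 (95% interval -1.54 to -0.35), with a limma adjusted p of 0.267. Without Dom/Dom replicate 1 it was -1.27 and passed (adjusted p = 0.00224). The other 7 fits with 1 array left out gave adjusted p between 0.356 and 0.693. The SD was 0.68 in Dom/Dom and 0.08 in wild type, so 1 array decides whether Ngfr is called.

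Ntrk2, which encodes TRKB, the receptor for BDNF, differed little. Its levels (chromosome 13, probe set 10405633) were 9.66, 9.54, 9.66 and 9.79 in Dom/Dom and 9.59, 9.72, 9.78 and 9.89 in wild type. The groups overlapped. The difference was -0.08, with a 95% interval of -0.28 to 0.12 (limma adjusted p = 1.00).

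Cxcr4, the CXCL12 receptor, varied with the replicate number, and same-numbered arrays of the 2 genotypes were close. Its levels (chromosome 1, probe set 10357472) were 10.63, 11.21, 10.04 and 10.14 in Dom/Dom and 10.54, 11.15, 10.13 and 10.14 in wild type. Replicate 2 was the highest array of each genotype, replicate 1 came next and replicates 3 and 4 were lowest. The range over all arrays was 1.17, while same-numbered arrays differed by 0.09, 0.06, -0.09 and 0.001. The difference was 0.01 with a 95% interval of -0.61 to 0.64 (limma adjusted p = 1.00), and the replicate block narrowed that interval to -0.11 to 0.14 (adjusted p = 0.928). Its sign turned to -0.05 with arrays centred on their medians and to -0.03 with quantile normalization. Of 9 measured lists of cell type markers, 0 had replicate 2 as the highest array in both genotypes. Replicate 2 was the lowest array in both genotypes for the melanoblast mean (8.16 in Dom/Dom and 9.14 in wild type). The same held for the epithelial mean (9.23 and 9.42). The part of cell types in the Cxcr4 level was not tested.

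**Figure D2:**
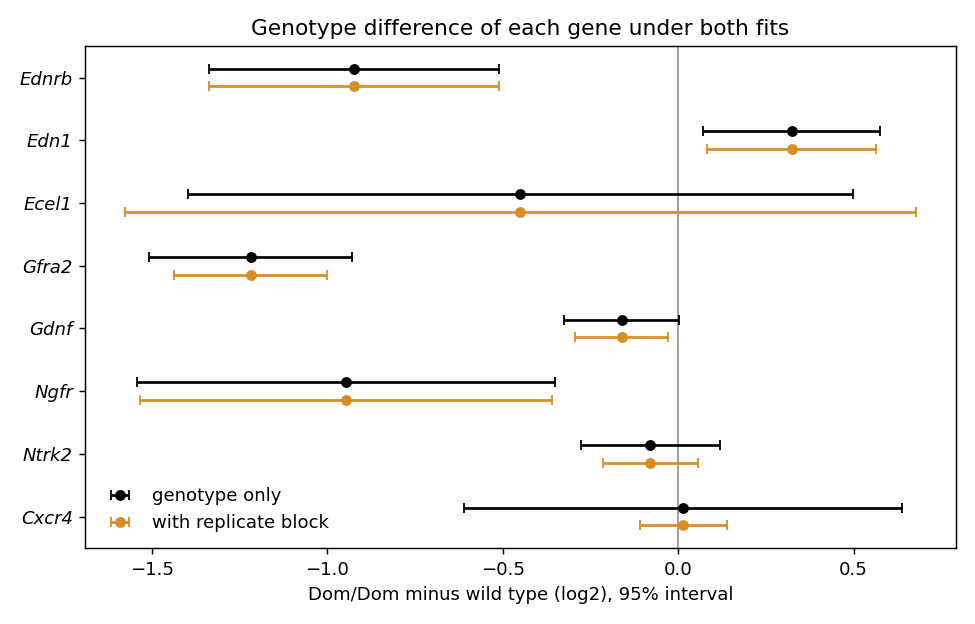
Dom/Dom minus wild type in log2 units (x axis) for the 8 genes, with points for the difference and bars for its 95% interval, unadjusted for the number of genes, in the fit on genotype alone (black) and with the replicate number as a block (orange). The interval of Cxcr4 narrows from -0.61 to 0.64 to -0.11 to 0.14 with the block, and that of Ednrb is nearly the same in both.

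Among the ligands, Edn1 was the gene of the 8 with the highest difference. It encodes endothelin 1, which signals mainly through EDNRA and can also bind EDNRB, and is made by endothelium and by epithelia. Its levels (chromosome 13, probe set 10404783) were 11.29, 11.30, 11.31 and 11.51 in Dom/Dom and 11.35, 10.98, 10.83 and 10.96 in wild type. Wild-type replicate 1 lay within the Dom/Dom values and the other 3 wild-type arrays lay below them. The difference was 0.32 (95% interval 0.07 to 0.58) and missed the threshold (limma adjusted p = 0.494; exact two-sided permutation p = 0.114). Of 18 endothelial markers 5 were measured, their mean was 8.05 to 8.17 in Dom/Dom and 8.13 to 8.25 in wild type, and 0 of the 5 passed in limma, without the block or with it (at an unadjusted p under 0.05, 0 and 1). Pecam1, a defining marker of endothelium, was at 8.18 ± 0.11 and 8.21 ± 0.18 (SD, n = 4). Of 18 epithelial markers 12 were measured, 11 had a difference below 0, and 0 passed in limma without the block (4 at an unadjusted p under 0.05). With the block 1 fell, as did 1.05% of all genes tested. It was the keratin gene Krt8 (-0.50, limma adjusted p = 0.232, 0.0164 with the block). The 12 had a mean of 9.23 to 9.62 in Dom/Dom and 9.42 to 9.75 in wild type. The part of these cells in the Edn1 level was not tested.

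Gdnf, the ligand that acts through GFRA1 and RET and draws crest cells along the gut, had a small difference with little spread. Its levels (chromosome 15, probe set 10422844) were 9.405, 9.293, 9.236 and 9.425 in Dom/Dom and 9.462, 9.505, 9.508 and 9.529 in wild type. All Dom/Dom arrays lay below all wild-type arrays. The lowest wild-type array exceeded the highest Dom/Dom array by less than the Dom/Dom SD of 0.09. The difference was -0.16 (1.12-fold), with a 95% interval of -0.33 to 0.0037 and a limma adjusted p of 0.836.

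Ecel1 encodes a membrane peptidase of neurons, named for its relation to the endothelin-converting enzymes. Its levels (chromosome 1, probe set 10356379) were 10.77, 9.13, 8.61 and 8.58 in Dom/Dom and 9.13, 10.10, 9.86 and 9.80 in wild type. Replicate 1 stood apart in both genotypes and in opposite directions, being the highest Dom/Dom array and the lowest wild-type array. The pair differences were 1.65 in replicate 1 and -0.97, -1.25 and -1.22 in replicates 2 to 4. Over all arrays the difference was -0.45 with a 95% interval of -1.40 to 0.50 (limma adjusted p = 1.00). In replicates 1 and 2 alone it was 0.34 (adjusted p = 1.00), and in replicates 3 and 4 alone -1.24 (adjusted p = 0.000294).

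The pair differences of Ecel1 and Ngfr were highest in pair 1, as was that of the neuron marker mean. Those of Ednrb, Gdnf, Ntrk2 and Cxcr4 were highest in pair 1 too. Of 20 neuron markers 8 were measured, and their mean was 10.68 in Dom/Dom replicate 1 and 10.13, 10.32 and 10.38 in replicates 2 to 4, against 10.41, 10.59, 10.95 and 10.93 in wild type. The mean differed by 0.27 in pair 1 and by -0.46, -0.63 and -0.55 in pairs 2 to 4, and 6 of the 8 markers were higher in Dom/Dom in pair 1 against 1, 0 and 0 in the other pairs. Isl1, a transcription factor of sensory and motor neurons, differed by 0.18 in pair 1 and by -0.88, -1.09 and -0.93 in pairs 2 to 4. Pou4f1, a sensory neuron factor, was lower in all 4 pairs, by -0.47, -0.74, -0.71 and -0.64. Of the 8 neuron markers 0 passed in limma without the block (2 at an unadjusted p under 0.05), and with it 1 fell, Pou4f1 (adjusted p = 0.00744). With the block, 1.05% of all genes tested fell. In wild type Ngfr stayed at 11.83 to 12.01, while the neuron mean ran from 10.41 to 10.95. Over the 8 arrays Ngfr followed Gfra2 (r = 0.84) about as closely as Ecel1 (0.81). The layout by pair was not limited to neuron markers. The keratin gene Krt5 differed by 0.38, -0.82, -1.19 and -1.68, though the mean of the epithelial markers was below 0 in every pair. The part of neurons in the levels of Ecel1 and Ngfr was not tested.

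Glial and melanoblast markers were the lists that lay apart between genotypes beside Gfra2 and Ednrb. Of 16 glial and Schwann precursor markers 10 were measured, and 5 fell (4 with the block). Over all genes tested, 0.408% fell (1.05% with the block). The mean of the 10 was 9.07 to 9.24 in Dom/Dom and 9.85 to 10.23 in wild type. The largest difference was that of Cdh19 (-4.25). The 5 that did not pass, Fabp7, S100b, Gfap, Dhh and Egr2, differed by -0.08 to 0.13. Of 10 melanoblast markers 4 were measured, 2 fell (3 with the block), and their mean was 8.16 to 8.40 in Dom/Dom and 9.14 to 9.74 in wild type. In wild type both means were lowest in replicate 2 and highest in replicate 3. The wild-type Ednrb level was lowest in replicate 2 and highest in replicate 4. The order differed in Dom/Dom. There Ednrb was highest in replicate 1 (12.05), where the glial mean was lowest (9.07). Ednrb was lowest in replicate 3 (11.79), where the melanoblast mean was 8.401, close to the 8.398 of replicate 4. EDNRB is also the receptor that melanoblasts and glial precursors carry. The part of these cells in the Ednrb and Gfra2 levels was not tested.

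**Figure D3:**
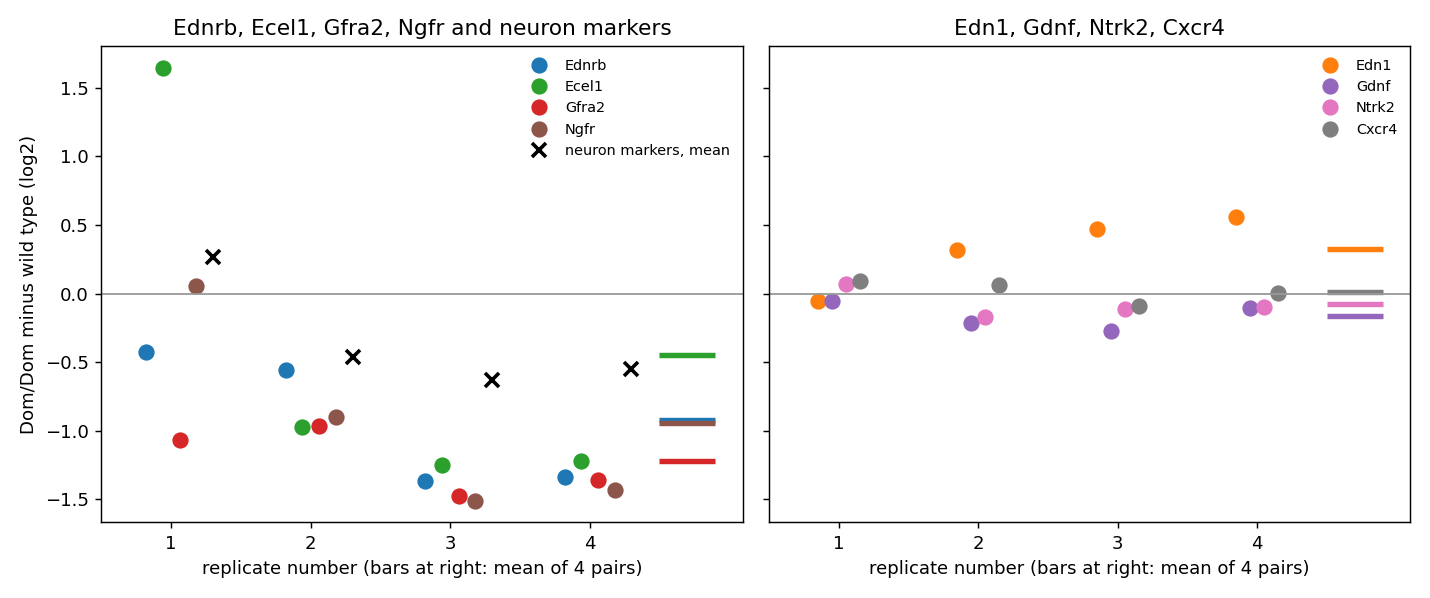
Dom/Dom minus wild type in log2 units (y axis) for each pair of same-numbered arrays (x axis), with 1 colour per gene, bars at the right for the mean of the 4 pairs and crosses for the mean of 8 neuron markers. Gfra2 and Ednrb are below 0 in all pairs, Ecel1 runs from 1.65 in pair 1 to -1.25 in pair 3, and Cxcr4 stays between -0.09 and 0.09.

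Across pairs, the 8 genes differed in how steady the genotype difference was. The pair differences had an SD of 0.24 for Gfra2, 0.50 for Ednrb, 0.72 for Ngfr, 1.40 for Ecel1 and 0.27 for Edn1, and of 0.08 for Cxcr4 and 0.10 for both Gdnf and Ntrk2. In replicates 3 and 4 alone, 4 of the 8 genes fell, Ednrb (-1.35), Ecel1 (-1.24), Gfra2 (-1.42) and Ngfr (-1.47), and Edn1 rose (0.51), in a fit that called 5.13% of all genes. In replicates 1 and 2 alone 0 of the 8 passed, as against 0.0584% of all genes. With the block and without pair 1, the same 4 genes fell and Edn1 rose, with adjusted p between 0.0036 and 0.0145 for Gfra2, Ngfr, Edn1 and Ednrb and of 0.00168 for Ecel1, where 6.93% of all genes passed. Array weights, which give less weight to arrays that deviate, called Ednrb, Gfra2 and Ngfr lower and Edn1 higher among 2.77% of all genes. No label says in what way the replicate numbers differ.

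Of the other ligands and receptors of these pathways, few were on the part of the array used here. Beside the 8 genes, 4 of 37 listed genes were measured, and 0 of these passed in limma, without the block or with it; 1 had an unadjusted p under 0.05 in each fit, Cxcl14. Ece2, an endothelin-converting enzyme, differed by -0.04 (95% interval -0.30 to 0.22). Ackr3, the scavenging receptor for CXCL12, differed by -0.01 (-0.43 to 0.41), and Mif, a cytokine that also binds CXCR4, by -0.10 (-0.33 to 0.13). Cxcl14, a chemokine related to CXCL12, had a Dom/Dom level of 8.81 ± 0.09 and a wild-type level of 8.60 ± 0.11 (SD, n = 4), higher in 4 of 4 pairs, as were 10.4% of all genes, and did not pass (limma adjusted p = 0.644; 0.0993 with the block). Genes such as Ret, Gfra1, Edn3, Ednra and Cxcl12 were not analysed here.

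Downstream, the list of G protein signalling genes held 9 measured genes, of which 0 passed in limma without the block and 2 had an unadjusted p under 0.05. With the block 1 fell and 1 rose, beside 1.05% and 0.452% of all genes tested. Both encode regulators that shorten G protein signals. Rgs16 had a Dom/Dom level of 11.38 ± 0.16 and a wild-type level of 11.88 ± 0.06 (SD, n = 4; limma adjusted p = 0.0512, 0.0171 with the block), and was lower by 0.35 to 0.62 in all 4 pairs. Rgs5 was at 11.10 ± 0.65 and 10.21 ± 0.59 (SD, n = 4; adjusted p = 0.583, 0.00358 with the block), and was higher by 0.68 to 0.99 in all 4 pairs. The median difference of the list was 0.03.

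The adaptors and kinases below RET and TRK receptors gave 0 calls in limma among 12 measured genes other than Ntrk2, without the block or with it (at an unadjusted p under 0.05, 0 and 2), and their median difference was -0.03. The largest differences were those of Pik3r1, a regulatory subunit of PI3 kinase (0.16, limma adjusted p = 0.994), and the adaptor Grb7 (-0.16, adjusted p = 0.995). Partners of p75 gave 0 calls in limma among 7 measured genes other than Ngfr, without the block or with it (at an unadjusted p under 0.05, 0 and 1), with a median of -0.04, led by the secretase subunit Psen2 (-0.17, adjusted p = 0.855) and the sheddase Adam17 (0.07, adjusted p = 1.00).

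Among 13 measured regulators of the enteric crest other than Ednrb, 2 fell and 11 did not pass, and the median difference was 0.02. Over all genes tested, 0.408% fell (1.05% with the block). The 2 of the list were Sox10 (-1.20), the gene that carries the Dom allele, and the neuregulin receptor gene Erbb3 (-1.57, limma adjusted p = 0.0214). Leaving out Dom/Dom or wild-type replicate 3 or 4 left 0 of the list. With the block 3 fell, as Tfap2a, a transcription factor of early crest, was added (-0.50, adjusted p = 0.108, 0.0418 with the block). Lists and genes were chosen with results of these arrays known, so these counts describe the lists.

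**Figure D4:**
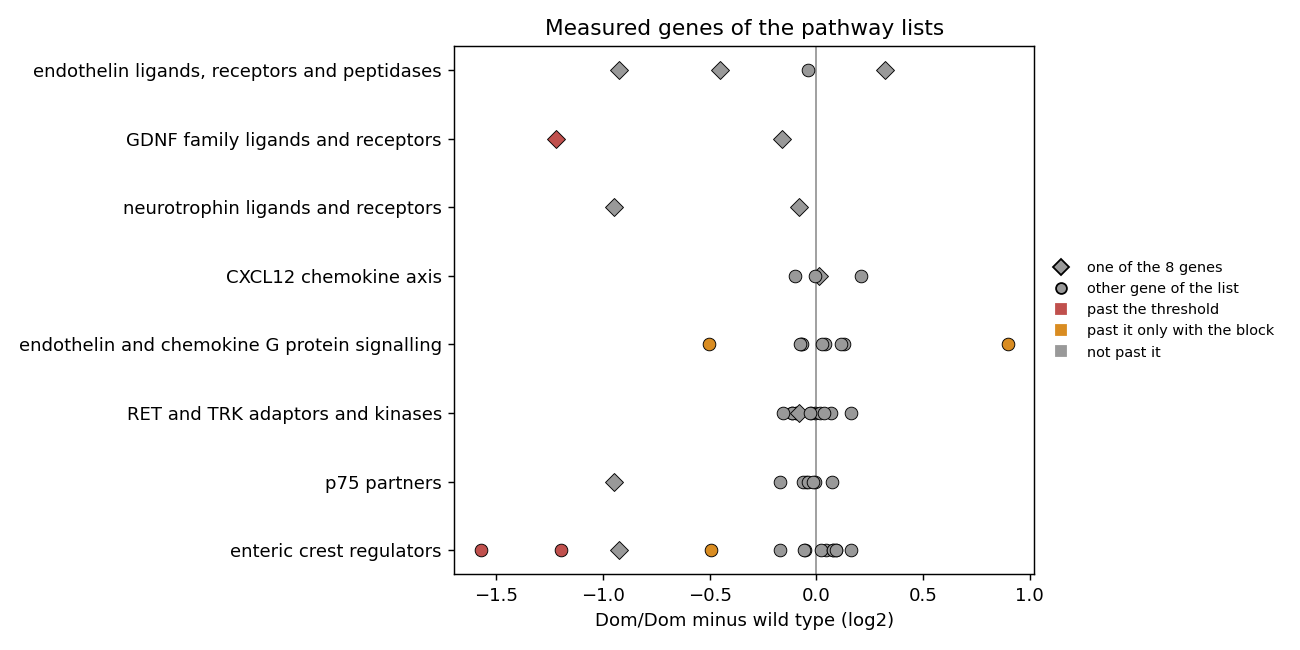
Dom/Dom minus wild type in log2 units (x axis) for each measured gene of 8 pathway lists (y axis), with diamonds for the 8 genes followed here, circles for other genes, red for those past an adjusted p of 0.05, orange for those past it only with the replicate block and grey for the rest. The red points are Gfra2, Sox10 and Erbb3, and the orange points are Rgs16, Rgs5 and Tfap2a.

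The genes whose levels followed each of the 8 most closely were found by Pearson's r over the 8 arrays, among all genes tested. Since arrays share genotype and replicate number, r is a description of likeness. Nearest to Gfra2 were Sash1 (r = 0.965), Itpk1 (0.963) and Kctd12 (0.962), of which Itpk1 (difference -0.65, limma adjusted p = 0.00947) and Kctd12 (-1.01, adjusted p = 0.00382) fell. Nearest to Ednrb were Ttyh2 (0.991), Moxd1 (0.988) and Atp2b4 (0.986), of which Ttyh2 fell (-0.95, adjusted p = 0.0336). Nearest to Ngfr were Sh2d4b (0.974), Tppp (0.969) and Cyfip2 (0.962), and to Ecel1 Slc18a3 (0.989), Nell2 (0.982) and Nsg2 (0.982), all of which differed by -0.46 to -0.11 without passing. Edn1 was followed by Tnfaip3 (0.976), Ikzf2 (0.968) and Lif (0.965), and Cxcr4 by Rapgefl1 (0.989), Unc5a (0.988) and Pde1b (0.987). Gdnf was followed by Mon2 (0.985), Lpin1 (0.934) and Npc2 (0.932), and Ntrk2 by Cdk19 (0.980), Atp6v1d (0.972) and Fyn (0.968).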

How the data were processed

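RNA was hybridised to 8 arrays after labelling of 250 ng of total RNA, per the labels' protocols. The authors deposited log2 expression values per probe set; the submitters' processing notes name RMA and Partek without settings. RMA normalises between arrays and compresses differences of dim probe sets. Detection calls were not used here, and the number of arrays limits the precision.

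Of 16381 probe sets in the table, which is part of the array, 7416 had 1 gene symbol, 509 several and 8456 none. The brightest probe set stood for a gene. RefSeq GRCm38.p6 matched 6829 of 6855 genes by identifier, and 6708 lay on chromosomes 1 and 10 to 16.

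The test was limma 3.58.1 (R 4.3.3; lmFit and eBayes on genotype alone, two-sided), adjusted by Benjamini-Hochberg over all 6855 genes with a threshold of 0.05, and was tested on simulated data. Exact permutation tests used scipy 1.17.1. Deviations from the genotype mean correlated at 0.47, 0.58, 0.61 and 0.67 between same-numbered arrays, each over 0.1, and on this basis the numbers count as pairs, though no label says so. Alternatives were a replicate block, median centring, quantile normalization, averaged probe sets, all probe sets tested, a filter on dim genes, a trended robust prior, array weights, replicates 1 and 2 or 3 and 4 alone, and arrays or pairs left out.

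The 8 genes, the lists and the alternatives were chosen with earlier results of these data known. Named genes were the 8, all measured genes of the 4 ligand and receptor lists, from the signalling, p75 and enteric lists those past the threshold with or without the block or else the 2 largest differences, and the 3 most alike genes for each of the 8. Other genes were named after their values were seen.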

Additional observations from a re-analysis of the deposited data

Results flagged for a closer look

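The 8 genes and 9 lists of markers were searched, in each genotype, for 1 array far from the other 3, by the gap to the nearest array as a share of the whole range. Such an array was found in 3 of the 34 searches, and chance flags about 5% of them. Edn1 was high in Dom/Dom replicate 4, at 11.51 against 11.29 to 11.31 in the other 3. The mean of 9 neural crest markers was low in Dom/Dom replicate 1, at 11.21 against 11.51 to 11.54, and so was the mean of 4 smooth muscle markers, at 9.93 against 10.10 to 10.12. Dom/Dom replicate 1 is also the array in which Ngfr, Ecel1, Ednrb and Gfra2 were highest in that genotype.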

How the results depend on the processing

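The deposited values carry no signal over background, which limits what can be said of dim genes. The fall of Gfra2 kept its direction in all 22 alternatives and passed in 20. Ednrb, Gdnf, Ngfr and Ntrk2 stayed below 0 and Edn1 above 0 in all 22, with adjusted p between 0.000294 and 0.992 for Ednrb and between 0.000219 and 1.00 for Ngfr. The replicate block changed the call of none of the 8 genes; it gave 103 calls over all genes in place of 33, and 2 in place of 0 among G protein signalling genes.

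Over all genes, leaving out 1 array gave 10 to 51 calls: 11 and 12 without Dom/Dom replicates 3 and 4, 10 without wild-type replicate 3 or 4 and 51 without wild-type replicate 2. Testing all probe sets gave 4, array weights 190, replicates 1 and 2 alone 4 and replicates 3 and 4 alone 352. With the replicate block and 1 pair left out, the counts were 475, 112, 15 and 13 without pairs 1 to 4. Some of these fits differ from the main fit in the number of arrays or of tests. The causes of these shifts were not tested.

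Gfra2 missed the threshold over all probe sets (-1.22) and in replicates 1 and 2 alone (-1.02). Leaving out 1 array gave -1.07 to -0.78 for Ednrb, -1.27 to -0.77 for Ngfr and -0.22 to 0.23 for Cxcr4, which was below 0 without Dom/Dom replicate 1 (-0.03) or 2 (-0.22) or wild-type replicate 3 (-0.11) or 4 (-0.10). Ednrb passed without wild-type replicate 2 and with median centring (-0.99), array weights (-1.18), replicates 3 and 4 alone (-1.35) and the replicate block without pair 1 (-1.09). Ngfr passed without Dom/Dom replicate 1 and with array weights (-1.23), replicates 3 and 4 alone (-1.47) and the replicate block without pair 1 (-1.28), Edn1 with the last 3 of these (0.42, 0.51 and 0.45), and Ecel1 with the last 2 of them (-1.24 and -1.15). Ecel1 was at 0.34 in replicates 1 and 2 alone. Cxcr4 turned below 0 with median centring (-0.0468), quantile normalization (-0.0258), replicates 3 and 4 alone (-0.0466) and the replicate block without pair 1 (-0.0113) or pair 2 (-0.0007). Median centring shifts the difference of every gene by the same amount. The median difference over all genes was -0.0620 with it and -0.0009 in the main fit. For the other settings the cause was not tested.

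Of the lists, with the 8 genes counted in them, endothelin genes gave 1 call with median centring, 2 with array weights, 3 in replicates 3 and 4 alone or with the replicate block without pair 1, and 0 to 1 with an array left out. GDNF family genes gave 0 over all probe sets and in replicates 1 and 2 alone. Neurotrophin genes and p75 partners each gave 1 with array weights, in replicates 3 and 4 alone and with the block without pair 1, and 0 to 1 with an array left out. G protein signalling genes gave 1 with median centring, quantile normalization, the filter on dim genes, the trended prior, array weights and the block without pair 3 or 4, 2 in replicates 3 and 4 alone and with the block without pair 1 or 2, and 0 to 1 with an array left out. Enteric regulators gave 0 over all probe sets, in replicates 1 and 2 alone and with the block without pair 3 or 4, 4 with array weights and in replicates 3 and 4 alone, 5 with the block without pair 1, and 0 to 3 with an array left out.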
